A study of Mus musculus with 8 samples.

Results

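The genes described here are the potassium channel genes of the mouse, taken as every protein-coding gene whose symbol begins with Kcn. There were 94 such genes among the 38293 gene rows of the count table. Their RNA was read in the left ventricle of 8 C57BL/6 males, all 8 weeks old and untreated, as 1 poly(A) library per heart. In 4 hearts Nbdy was knocked out (KO), labelled mORF4-NBDY, and 4 hearts were wild type (WT). The product of Nbdy is a small protein of the machinery that removes mRNA caps. The labels name no Cre driver and do not describe the KO allele. KO libraries carry replicate numbers 5 to 8 and WT libraries 1 to 4.

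Potassium channels let potassium ions leave the cardiomyocyte and so end the action potential and hold the resting potential. A channel is built from pore subunits, which may be opened by voltage, by calcium or sodium, or conduct at rest as inward rectifiers and leak channels, and from auxiliary subunits that set their gating and their number at the membrane. In the mouse ventricle the fast repolarising currents are carried mainly by voltage-gated pore subunits with their auxiliary partners, and the resting current mainly by inward rectifiers.

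Total counts were 11793495 to 14699949 in KO libraries and 11101901 to 12773611 in WT libraries. Levels are given as CPM, counts relative to the library size after TMM scaling. Levels of different genes are compared as CPM per kilobase of exon unless stated otherwise. The length is that of all annotated exons of a gene together, and not of the isoform expressed. Nbdy had 137, 135, 133 and 115 counts in KO replicates 5 to 8, against 241, 208, 246 and 248 counts in WT replicates 1 to 4 (log2 fold change -0.97 ± 0.11 SE, adjusted p = 0.0060 in edgeR, and 0.056 without KO replicate 6). Markers of ventricular cardiomyocytes (8 genes) summed to 67043 to 78278 CPM in KO and 63278 to 77220 CPM in WT. The 5 atrial markers summed to 457 to 713 CPM in KO and 264 to 481 CPM in WT, nearly all of it Nppa, and Bmp10 had 0 counts. The 6 markers of the conduction system summed to 4.08 to 20.7 CPM in KO and 5.76 to 16.2 CPM in WT, most of it Cntn2 in all libraries, and Isl1 had 0 counts. WT replicate 2 stands apart in Atf3, a stress-induced transcription factor. Its level there was 260 CPM, where KO libraries held 6.16 to 25.1 CPM and the other WT libraries 5.94 to 23.8 CPM. Values below that this library moves most are given with and without it. Because whole ventricle was used, fewer cells of a type and less RNA per cell cannot be told apart.

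Of the 94 Kcn genes, 76 had at least 1 count in some library and 18 had none. A total of 40 genes had enough counts to be tested, and the other 36 detected genes did not exceed 18 counts in any library. The 18 genes with no count included Kcne2, a partner of the rapid delayed rectifier, the epithelial inward rectifiers Kcnj1 and Kcnj13, and the neuronal channel gene Kcnq3. With 0 counts, a level of up to 0.204 to 0.270 CPM (3 counts in a library) cannot be told from absence, and this limit covers counting error only. Of 40 voltage-gated pore genes 17 were tested, of 13 auxiliary subunits 7, of 12 calcium- or sodium-activated channel genes 6, of 15 inward rectifiers 7 and of 14 leak channel genes with 2 pore domains (2-pore channels) 3.

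The sequence before the transcription start is shown for 3 genes that the results come back to: Kcnip2, the auxiliary subunit with the highest level, Kcnj2, an inward rectifier whose WT mean depends on a single library, and Kcne3, the 1 tested gene whose mean was more than 1.5-fold lower in KO. Each is 250 bases long, 5′ to 3′ on the strand of the gene, from RefSeq on build GRCm38.p6. Capitals mark GGGCGG, the core of the GC box that Sp and Klf factors bind, and CACGTG, the E-box of clock and other basic helix-loop-helix factors. Both strands were searched, and the 2 motifs do not overlap each other here.
Kcnip2 (chr19:45816064-45816313, minus strand): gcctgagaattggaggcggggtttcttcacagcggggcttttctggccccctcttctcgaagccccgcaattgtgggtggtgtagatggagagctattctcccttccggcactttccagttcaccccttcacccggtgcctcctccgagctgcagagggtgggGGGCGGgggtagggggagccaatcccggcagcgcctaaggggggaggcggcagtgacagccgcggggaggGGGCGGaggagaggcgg
Kcnj2 (chr11:111065914-111066163, plus strand): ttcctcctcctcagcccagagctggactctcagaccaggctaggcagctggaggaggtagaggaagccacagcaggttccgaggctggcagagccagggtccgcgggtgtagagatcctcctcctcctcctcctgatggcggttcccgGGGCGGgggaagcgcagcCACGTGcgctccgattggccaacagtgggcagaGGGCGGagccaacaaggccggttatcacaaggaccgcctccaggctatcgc
Kcne3 (chr7:100178433-100178682, plus strand): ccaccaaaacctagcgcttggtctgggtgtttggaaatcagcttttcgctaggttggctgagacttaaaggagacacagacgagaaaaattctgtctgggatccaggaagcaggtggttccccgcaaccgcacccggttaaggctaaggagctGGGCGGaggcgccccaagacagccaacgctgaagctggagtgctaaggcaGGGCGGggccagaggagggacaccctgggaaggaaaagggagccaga

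Each of these windows held 2 GC boxes, and that of Kcnj2 held 1 E-box as well. The sequence table holds 69 of the 94 Kcn genes, with 94 start sites between them. A GC box stood in 37.5% of the 40 start sites of tested Kcn genes, in 50.0% of the 54 start sites of Kcn genes that were not tested, and in 32.7% of all 32851 start sites in the table. An E-box stood in 12.50%, 1.85% and 6.02% of the same sets. The median GC content of the windows in these sets was 58.0%, 59.8% and 52.4%, and its part in the shares was not tested. The start sites of tested Kcn genes come from only 26 of the 40 tested genes. Those with an E-box were 5 start sites, of Kcnab1, Kcne4, Kcnj2 and Kcnn4. Kcne3 has a further start site in the table, upstream of the one shown, and its window at chr7:100176420-100176669 held neither motif. The annotated gene begins at base 100176502, so the Kcne3 window shown above lies inside its span. These are matches of letters and say nothing of which factor binds.

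A small number of genes made up most of the family's RNA. Per kilobase of exon, the 4 leading genes of each library held 60.9 to 62.9% of the summed Kcn level in KO and 58.2 to 64.8% in WT. Kcnk3, a 2-pore leak channel closed by acid, stood first at 47.8 ± 6.81 CPM per kb (SD over the 8 libraries). Kcnip2, the calcium-sensing partner of the Kcnd pores, followed at 42.3 ± 5.23 and Kcng2, a silent subunit that forms no channel on its own, at 40.7 ± 3.66 CPM per kb. The ranges of these 3 overlapped, and no order among them held in all 8 libraries. Kcng2 exceeded the next gene in every library. That was Kcna5, a pore of the slowly inactivating current, at 21.4 ± 5.19 CPM per kb, close to Kcnj8, an inward rectifier of the ATP-sensitive channel, at 19.5 ± 1.83. Kcnh2, Kcnj3 and Kcnq1 came next at 12.7 ± 2.79, 8.45 ± 1.61 and 5.61 ± 0.566 CPM per kb, and Kcnj5 at 5.54 ± 0.686 did not differ from Kcnq1 beyond their spread. Further down came Kcnv2 at 3.83 and Kcnj2 at 3.69 CPM per kb, and Kcnn4 was last of the tested genes at 0.137 CPM per kb.

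**Figure D1:**
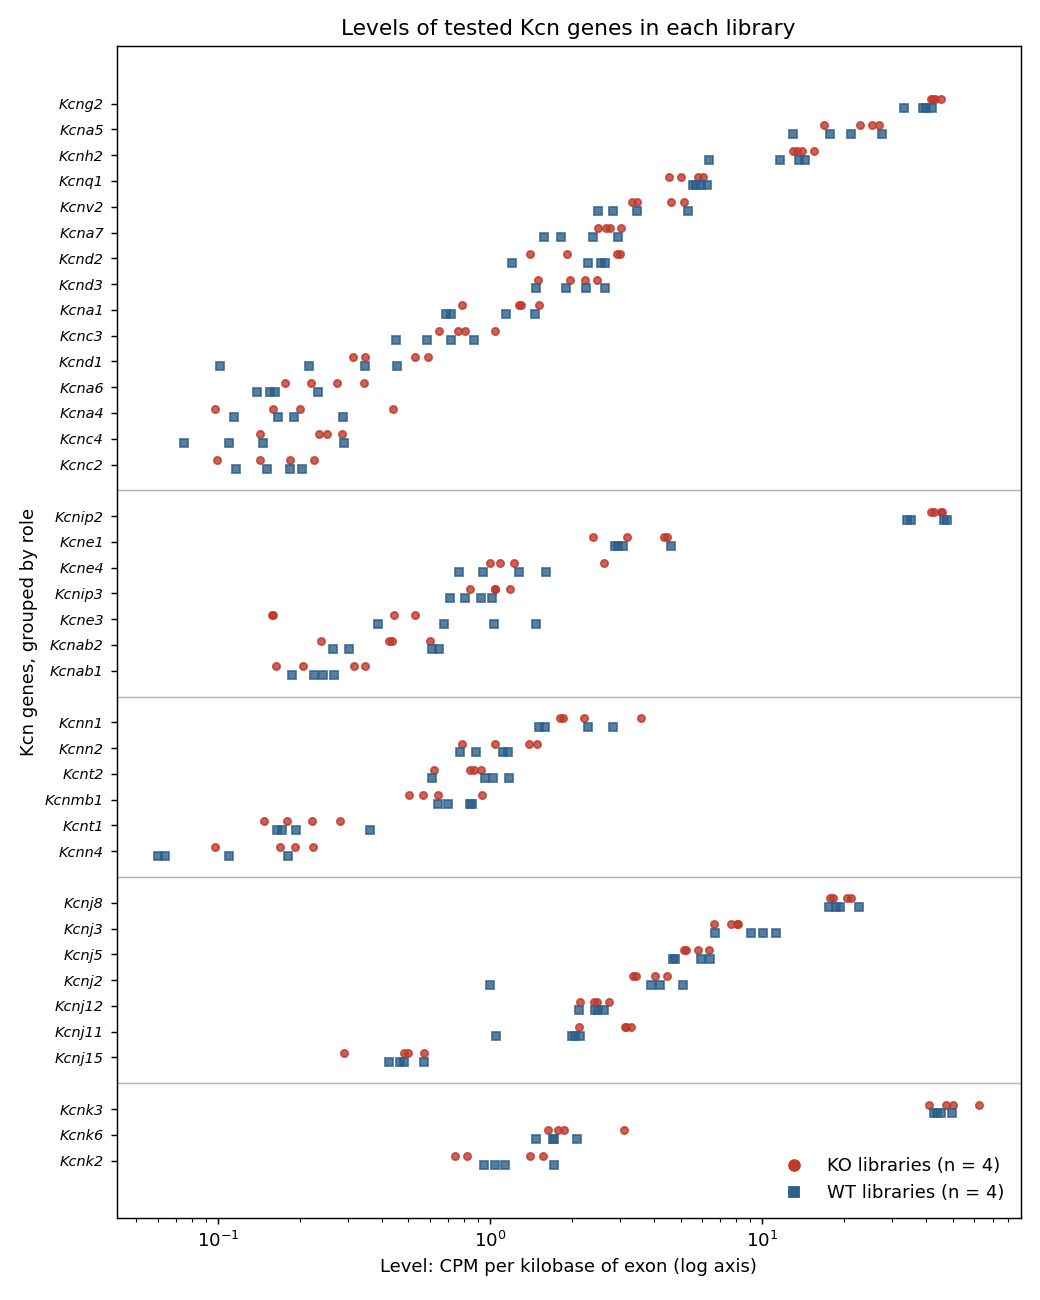
Level of 38 tested Kcn genes in every library, as CPM per kilobase of exon on a log axis, with KO libraries as circles drawn above WT libraries as squares. From top to bottom the blocks are voltage-gated pore subunits, their auxiliary subunits, calcium- and sodium-activated channels, inward rectifiers and 2-pore channels. Kcnk3, Kcnip2 and Kcng2 lie between 33.1 and 62.7 CPM per kb, and the points of the genotypes overlap in every row.

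The comparison of KO with WT asked whether loss of Nbdy alters the level of these genes. None of the 40 tested Kcn genes passed the threshold (adjusted p below 0.05 over all 13336 genes tested in edgeR), and the smallest adjusted p was 0.711, for Kcnj11. Over all tested genes 0.0225% were called. At an unadjusted p below 0.05 there were 3 Kcn genes, or 7.50% of those tested, beside 6.40% of all genes: 2 with a higher mean in KO, Kcnj11 among them (3.50% of all genes were higher at this p), and 1 with a lower one, Kcne3 (2.89% of all genes). DESeq2 and limma-voom also called 0 Kcn genes and gave 3 below an unadjusted 0.05. No tested Kcn gene had KO and WT libraries that did not overlap, where 4.12% of all tested genes did, 2.14% higher and 1.98% lower in KO. Without WT replicate 4 there were 5 such genes of 40 (12.5%, beside 8.83% of all genes). Without any other single library there was at most 1 (at most 2.44%, beside 6.07 to 11.2% of all genes).

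The differences of the tested Kcn genes had a median log2 fold change of 0.16, beside -0.0032 over all tested genes. There were 28 positive and 12 negative values, so 70.0% were positive, beside 49.4% of all tested genes. The median was 0.11 without WT replicate 2 or without KO replicate 7, 0.11 with library totals in place of TMM and 0.12 after removal of a trend with GC content and exonic length. The median over all tested genes was not computed for these fits. With library totals the value of Nbdy fell as well, to -1.02 from -0.97. Tested Kcn transcripts had a median GC content of 53.2% and a median exonic length of 4806 bp, beside 49.9% and 4403 bp over all tested genes; the part of these in the median was not tested. By role, 14 of 17 voltage-gated pore genes had positive values (median 0.28), 5 of 7 auxiliary subunits (0.10), 3 of 6 calcium- or sodium-activated channel genes (0.05), 4 of 7 inward rectifiers (0.01) and 2 of 3 2-pore channels (0.14). The summed level of all Kcn genes was 1019, 992, 982 and 900 CPM in KO replicates 5 to 8, against 865, 825, 924 and 955 CPM in WT replicates 1 to 4. KO replicate 8 lay within the WT range and the other KO libraries lay above it. This held only after TMM scaling. As a share of library totals, Kcn counts were 0.0807 to 0.101% in WT, and every KO library lay within that range. WT replicate 3 was the highest library on that measure.

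**Figure D2:**
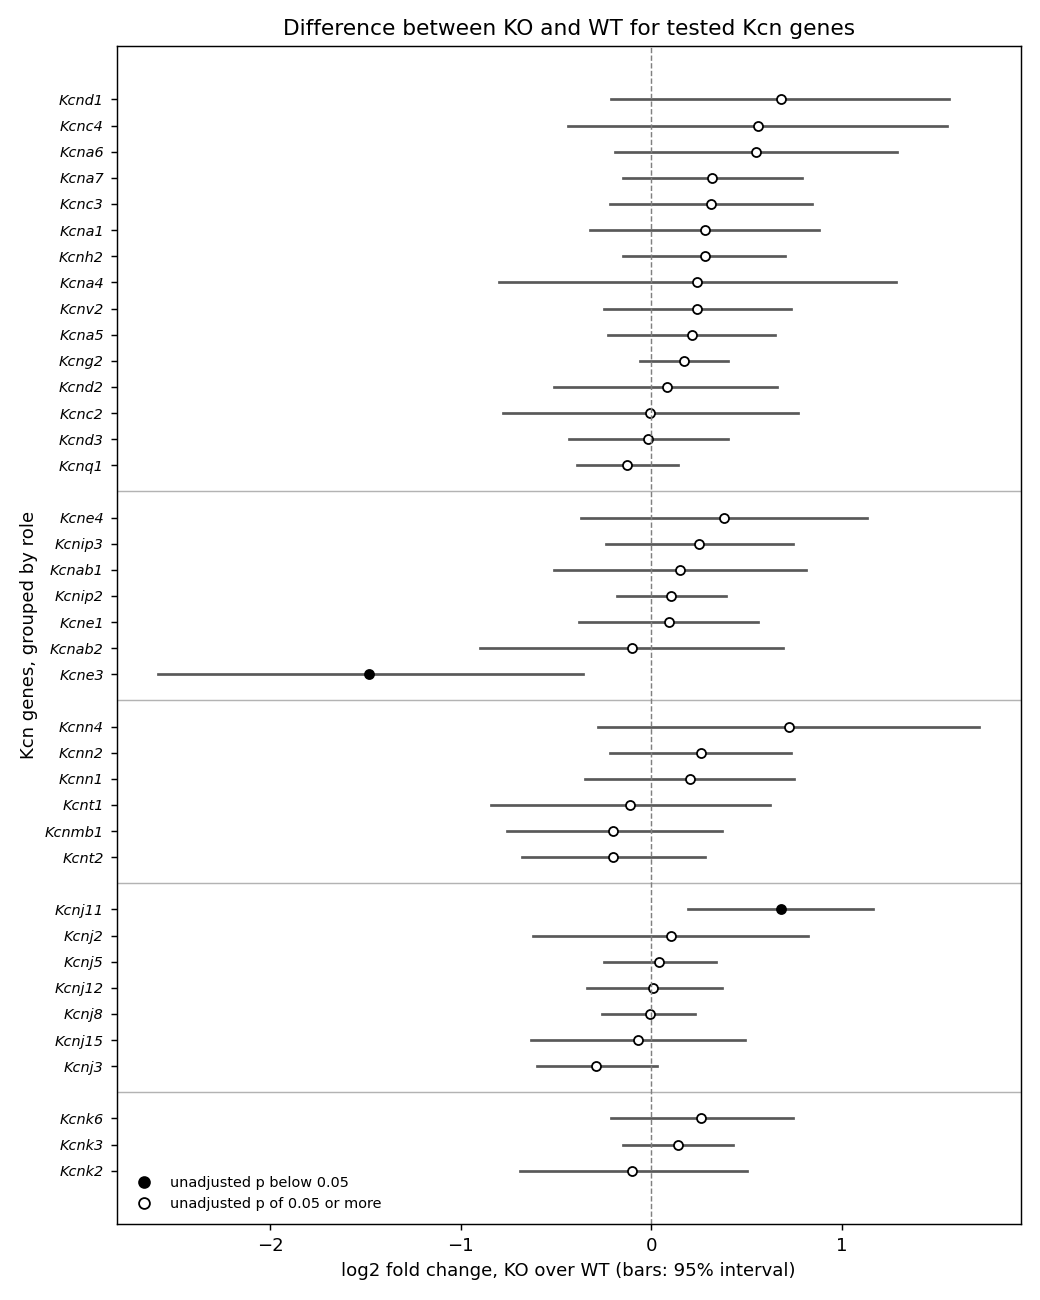
Difference between KO and WT for 38 tested Kcn genes, as log2 fold change with its 95% interval, in the same blocks of roles as the plot of levels. Kcnj11 and Kcne3 (filled points) have intervals that leave out 0, and none of the 38 genes shown passed after adjustment over all genes.

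Genes of the transient outward current, which gives the early fast repolarisation of the mouse ventricle, did not pass and had similar means in both genotypes. Kcnip2 had 148, 159, 157 and 144 CPM in KO replicates 5 to 8, against 118, 122, 162 and 166 CPM in WT replicates 1 to 4. All KO libraries lay inside the WT range, which had a pair of low and a pair of high libraries, and the log2 fold change was 0.10 ± 0.13 (95% interval -0.18 to 0.39). Kcnd2, the main pore of this current, had 7.21, 9.86, 15.4 and 15 CPM in KO, against 6.18, 11.8, 13.2 and 13.6 CPM in WT. Each genotype held a low library (KO replicate 5 and WT replicate 1), and the value of 0.08 ± 0.27 turned to -0.13 without WT replicate 1. Kcnd3, the second pore, had 21.4, 23.6, 18.8 and 14.4 CPM in KO, against 25.4, 18.2, 21.6 and 14.1 CPM in WT. The ranges coincide (-0.02 ± 0.19), and the sign turned in several fits. Kcna4, pore of the slow component, reached only 0.471 to 2.13 CPM in KO and 0.553 to 1.39 CPM in WT (0.24 ± 0.48). The partner genes Dpp6 and Dpp10, which join such channels in other tissues, had 0 counts in all libraries.

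Within a library, Kcnip2 exceeded its pore partners many times over. The ratio of Kcnip2 to Kcnd2 per kb of exon was 14.3 to 30.5 in KO and 15.3 to 28.3 in WT, and that of Kcnip2 to Kcnd3 was 18.6 to 27.7 in KO and 12.8 to 32.4 in WT. The ratio of Kcnd2 to Kcnd3 varied about as much within a genotype as over all hearts, at 0.626, 0.779, 1.52 and 1.94 in KO replicates 5 to 8 and 0.453, 1.21, 1.14 and 1.79 in WT replicates 1 to 4. KO replicates 5 and 6 and WT replicate 1 thus held more Kcnd3 than Kcnd2 RNA per kb, and the other libraries more Kcnd2. This order depends on the exon lengths used, 9587 bp for Kcnd3 and 5152 bp for Kcnd2. Before division by length, Kcnd3 had the higher CPM in every library except KO replicate 8. These and the ratios below come from 12 pairs computed after the values were seen, and none was tested.

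Pores of the slowly inactivating and steady-state currents had small positive differences that did not pass. Kcna5 had 48.2, 76.4, 72.1 and 65.2 CPM in KO, against 50.6, 78.8, 60.5 and 37.0 CPM in WT, a log2 fold change of 0.21 ± 0.20. Its lowest library was WT replicate 4 and its highest WT replicate 2. The value was 0.04 without WT replicate 4, 0.41 without WT replicate 2 (unadjusted p = 0.0442, adjusted p = 0.968 in edgeR) and 0.38 with 1 surrogate variable (unadjusted p = 0.0421, adjusted p = 0.791). Kcnk3 had 249, 199, 187 and 163 CPM in KO, against 180, 174, 170 and 198 CPM in WT. KO replicate 5 was its highest library, and the value of 0.14 ± 0.13 was 0.02 without it.

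Of 10 silent voltage-gated subunits, which form no channel of their own and change the channels they join, Kcng2 and Kcnv2 were tested. Kcnf1, Kcng3, Kcns2 and Kcnv1 had 0 counts in all libraries, and Kcng1, Kcng4, Kcns1 and Kcns3 had at most 11 counts in a library. Kcng2 had 135, 124, 126 and 129 CPM in KO, against 99.0, 119, 116 and 125 CPM in WT. WT replicate 1 was lowest and WT replicate 4 lay within the KO range (0.17 ± 0.11, 95% interval -0.06 to 0.40). Kcnv2, another silent subunit, had 26.3, 17.0, 23.6 and 17.7 CPM in KO, against 27.1, 17.6, 14.4 and 12.7 CPM in WT (0.24 ± 0.22), and the genotypes overlapped.

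Delayed rectifier genes, which matter most for human repolarisation and little for the adult mouse, were led by Kcnh2. Kcnh2 had 74.6, 65.1, 67.6 and 62.7 CPM in KO, against 56.4, 30.8, 66.2 and 69.4 CPM in WT. WT replicate 2 held less than any other library, and the log2 fold change of 0.28 ± 0.20 was 0.08 without it. Kcnq1, the pore of the slow delayed rectifier, had 20.6, 24.8, 18.6 and 23.8 CPM in KO, against 23.3, 24.4, 22.7 and 25.6 CPM in WT (-0.13 ± 0.12, 95% interval -0.39 to 0.14). Its auxiliary subunit Kcne1 had 10.2, 14.3, 7.69 and 14.0 CPM in KO, against 9.47, 9.86, 14.8 and 9.22 CPM in WT (0.09 ± 0.22). The ratio of Kcnq1 to Kcne1 per kb was 1.33 to 1.90 in KO and 1.21 to 2.18 in WT.

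Inward rectifiers of the resting current IK1 had nearly equal means, but WT replicate 2 stood apart in Kcnj2. Kcnj2, the main pore of this current, had 24.2, 18.7, 22.0 and 18.2 CPM in KO, against 21.2, 5.44, 22.9 and 27.8 CPM in WT. The other 3 WT libraries overlapped the KO libraries. The log2 fold change was 0.10 ± 0.33 with all libraries and -0.20 without WT replicate 2 (unadjusted p = 0.197 in edgeR). Kcnj12, its partner, had 6.79, 6.60, 5.88 and 7.53 CPM in KO, against 6.66, 7.19, 6.86 and 5.84 CPM in WT, with no such low library (0.01 ± 0.16). The ratio of Kcnj2 to Kcnj12 per kb was 1.22 to 1.89 in KO, and 0.382 in WT replicate 2 against 1.61 to 2.41 in the other WT libraries. Kcnj4, the third gene of the group, had at most 6 counts in a library and was not tested, as was the 2-pore channel gene Kcnk1 with at most 4.

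The ATP-sensitive channel couples membrane potential to energy state, with Kcnj11 as its main ventricular pore, Kcnj8 as its vascular pore and Abcc9 or Abcc8 as regulatory subunits. Kcnj11 had 7.77, 12.1, 11.5 and 11.6 CPM in KO, against 7.55, 3.87, 7.35 and 7.83 CPM in WT. KO replicate 5 lay among the WT libraries, the other KO libraries lay above them, and WT replicate 2 was lowest. The log2 fold change was 0.68 ± 0.22 (95% interval 0.19 to 1.16, unadjusted p = 0.00985, adjusted p = 0.711 in edgeR), and 0.50 without WT replicate 2. Kcnj8 had 46.1, 54.0, 52.2 and 45.2 CPM in KO, against 47.5, 48.9, 44.9 and 57.8 CPM in WT (-0.01 ± 0.11, 95% interval -0.26 to 0.23). The 9 markers of smooth muscle cells and pericytes, where Kcnj8 is known to be strong, summed to 812 to 1465 CPM in KO and 1028 to 1284 CPM in WT, 0 of them were called, and their part in the level of Kcnj8 was not tested.

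Kcnj11 was set against Kcnj8 and Abcc9 in each library, and its ratio to Abcc8 was not computed. The ratio of Kcnj11 to Kcnj8 per kb was 0.117, 0.155, 0.152 and 0.177 in KO replicates 5 to 8, against 0.110, 0.0548, 0.113 and 0.0939 in WT replicates 1 to 4. The ratio of Kcnj11 to Abcc9 was 0.0897, 0.123, 0.132 and 0.119 in KO, against 0.0710, 0.0436, 0.0709 and 0.0842 in WT. In both ratios the lowest KO library lay just above the highest WT library. Of all the pairs computed, only these did not overlap between genotypes. Both hold Kcnj11, the Kcn gene with the smallest p, and neither was tested. Abcc9 itself averaged 210 ± 14.1 CPM in KO and 223 ± 19.0 CPM in WT, and Abcc8 47.9 ± 6.48 CPM in KO and 43.3 ± 8.77 CPM in WT (SD, n = 4 each). Their log2 fold changes were -0.09 ± 0.11 and 0.15 ± 0.15, and neither passed. Kcnj11 and Abcc8 are neighbours on chromosome 7, 3.76 kb apart, and Kcnj8 and Abcc9 on chromosome 6, 16.2 kb apart.

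Genes of the acetylcholine-gated channel, which slows the atrium and the sinus node, were well detected in the ventricle. Kcnj3 had 42.1, 40.0, 42.3 and 34.5 CPM in KO, against 47.5, 35.0, 58.7 and 52.4 CPM in WT. WT replicate 2 was the only WT library among the KO libraries, and the log2 fold change was -0.29 ± 0.15 with it (unadjusted p = 0.0749, adjusted p = 0.777 in edgeR) and -0.41 without it (unadjusted p = 0.00411, adjusted p = 0.948). Kcnj5 had 27.1, 24.5, 24.1 and 29.9 CPM in KO, against 22.0, 22.3, 30.1 and 27.9 CPM in WT (0.04 ± 0.13). The ratio of Kcnj3 to Kcnj5 per kb was 1.40, 1.47, 1.58 and 1.03 in KO, against 1.94, 1.41, 1.75 and 1.69 in WT. Of the 5 atrial markers, Nppa, which stressed ventricle also makes, had 556, 447, 709 and 693 CPM in KO, against 445, 476, 420 and 260 CPM in WT. The atrial light chain Myl4 held 3.50 to 8.23 CPM in KO and 4.15 to 7.15 CPM in WT, Myl7 at most 0.922 CPM in KO and 2.25 CPM in WT, Sln at most 0.426 CPM in KO and 0.562 CPM in WT, and Bmp10 had 0 counts. Of these 5 genes 2 were tested and 0 called, and their part in the level of Kcnj3 was not tested.

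Among calcium-activated channels, Kcnn1 and Kcnn2 of the small-conductance class were detected and Kcnn3 held at most 3 counts. Kcnn1 had 16.4, 10.1, 8.24 and 8.49 CPM in KO, against 10.5, 7.28, 6.94 and 12.9 CPM in WT. KO replicate 5 was highest, and the value of 0.20 ± 0.25 was -0.07 without it. Kcnn2 averaged 8.77 ± 2.39 CPM in KO and 7.34 ± 1.37 CPM in WT (SD, n = 4 each), a log2 fold change of 0.26 ± 0.22. Kcnmb1, the smooth muscle beta subunit of the large-conductance channel, averaged 2.77 ± 0.803 CPM in KO and 3.19 ± 0.447 CPM in WT (SD, n = 4 each; -0.20 ± 0.26). Its pore gene Kcnma1 had at most 6 counts in any library and was not tested.

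Among genes outside the current lists, Kcne3 had an unadjusted p below 0.05 on few counts. Kcne3, a single-pass auxiliary subunit of Kcnq1 and other pores, had only 4, 4, 12 and 9 counts in KO, against 15, 20, 32 and 9 counts in WT. WT replicate 4 lay within the KO range. Its log2 fold change of -1.48 ± 0.52 (95% interval -2.59 to -0.36, unadjusted p = 0.0135, adjusted p = 0.724 in edgeR) was -1.84 with KO replicate 7 left out and -1.12 with WT replicate 3 left out (unadjusted p = 0.0616). With a filter of at least 1 CPM in at least 4 libraries, 36 Kcn genes were tested and Kcne3 was not among them.

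**Figure D3:**
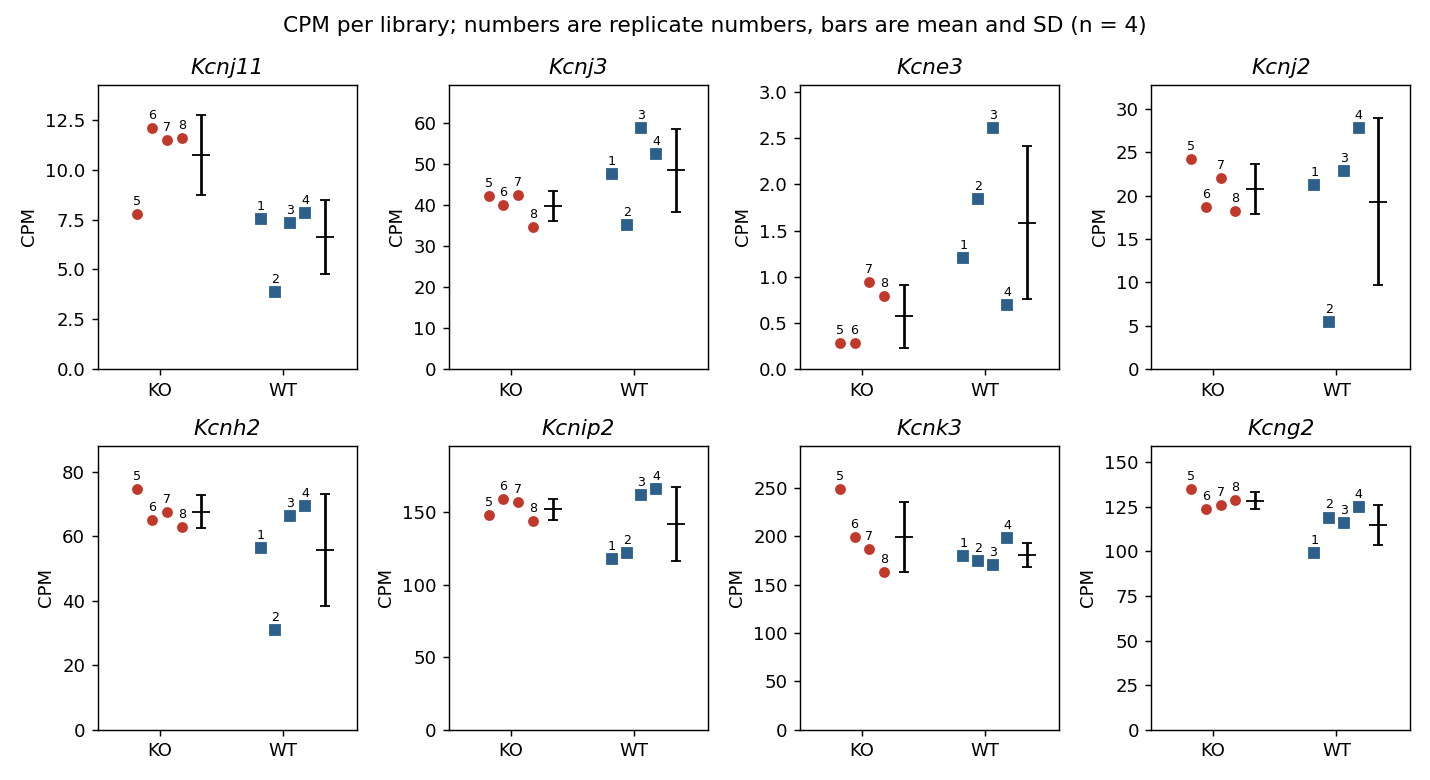
CPM of 8 Kcn genes in each library, KO left of WT, with the mean and SD (n = 4) beside the points and replicate numbers above them; each axis starts at 0. WT replicate 2 is the lowest library of Kcnj11, Kcnj2 and Kcnh2, at 3.87, 5.44 and 30.8 CPM, and not of Kcne3, Kcnj3, Kcnip2, Kcnk3 or Kcng2.

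Kcnd1 and Kcna6 had few counts and did not pass. Kcnd1, a less studied relative of Kcnd2 on chromosome X, had 2.80, 3.12, 1.65 and 1.84 CPM in KO, against 2.41, 1.84, 1.14 and 0.538 CPM in WT (0.68 ± 0.41, adjusted p = 0.797 in edgeR). The value was 1.03 without WT replicate 1 (unadjusted p = 0.0353, adjusted p = 0.426) and 0.39 without WT replicate 4 (unadjusted p = 0.310, adjusted p = 0.826). Kcna6, a Shaker-type pore, averaged 1.51 ± 0.427 CPM in KO and 1.03 ± 0.248 CPM in WT (SD, n = 4 each), a log2 fold change of 0.55 ± 0.34 (adjusted p = 0.797 in edgeR). The genotypes overlapped in both genes. Kcnn4, an intermediate-conductance channel of blood and endothelial cells, had the highest log2 fold change of the family, 0.72 ± 0.46, on 7 to 14 counts per KO library and 4 to 10 per WT library. The remaining tested genes described here had log2 fold changes from -0.20 for the sodium-activated channel gene Kcnt2 to 0.56 for the voltage-gated Kcnc4.

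Libraries were also compared over the whole family. In WT replicate 2 the median deviation over the 40 tested Kcn genes was -0.14 on the log2(CPM + 0.5) scale against the mean of the other libraries, where the median over all tested genes was 0.001. This library held the lowest value of 7 Kcn genes, among them Kcnj2, Kcnj11, Kcnh2, Kcna6 and Kcnc4. That is 17.5% of the tested Kcn genes, beside 19.1% of all tested genes, a share near the background. Its median log2 level over the family lay at -0.06 from the WT mean, within the pooled SD of 0.07 between libraries of a genotype. On this measure KO replicates 5 to 8 lay at 0.04, 0.14, 0.23 and 0.09. WT replicates 1, 3 and 4 lay at 0.08, 0.03 and 0.02, so the genotypes overlapped. WT replicate 2 held the highest value of 2 Kcn genes, Kcna5 and Kcnt2, or 5% of those tested, beside 19.8% of all tested genes. KO replicate 7 had the largest positive median deviation, 0.17, and held the highest value of 8 of the 40 Kcn genes, beside 9.70% of all tested genes. KO replicate 5 held the highest value of 9 (22.5%, beside 13.6%), and WT replicate 4 the lowest value of 9 (22.5%, beside 13.1%).

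**Figure D4:**
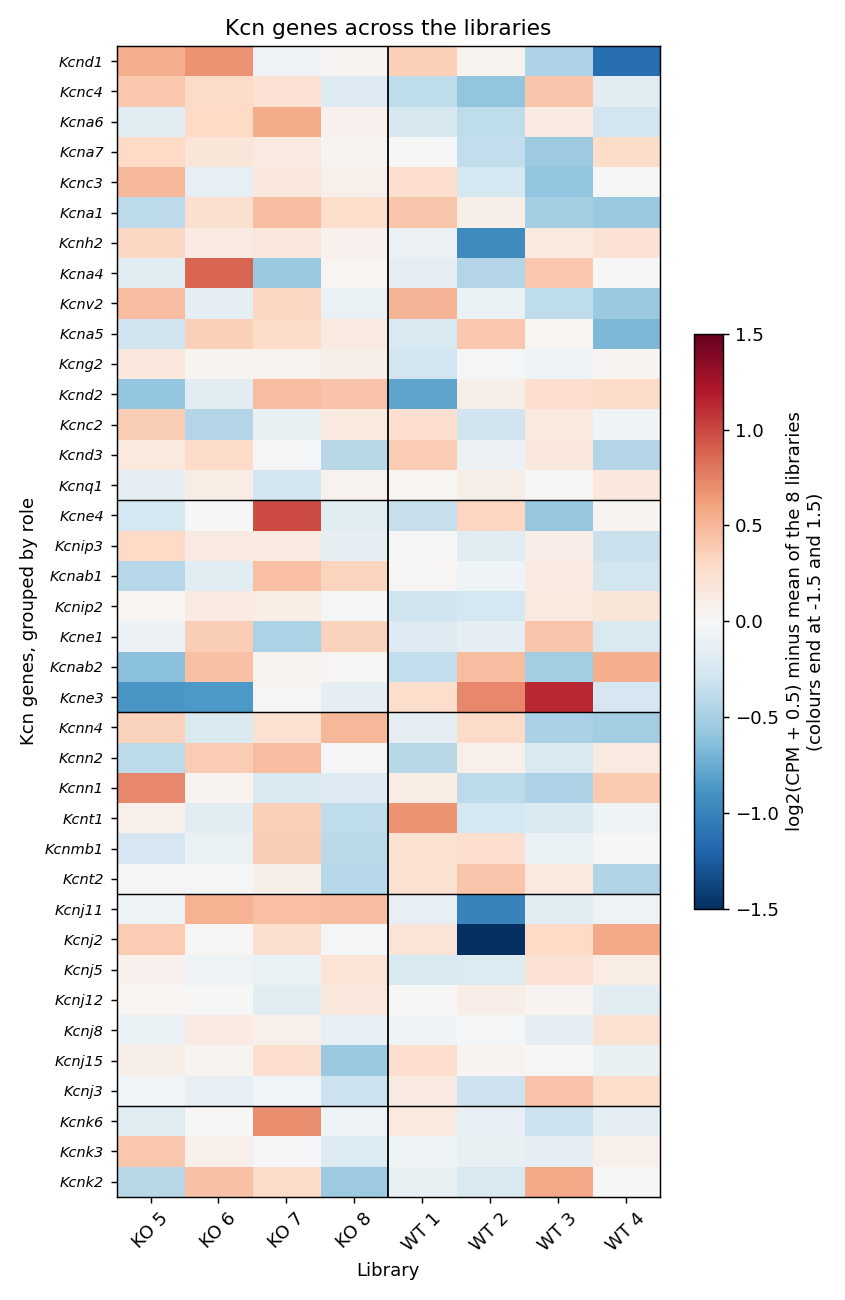
Deviation of 38 tested Kcn genes, each from its mean over the 8 libraries, on the log2(CPM + 0.5) scale, with KO libraries left of the line and WT libraries right of it, in the same blocks of roles as the plot of levels. The deviations furthest below 0 are Kcnj2 in WT replicate 2, Kcnd1 in WT replicate 4 and Kcnj11 in WT replicate 2, and those furthest above it are Kcne3 in WT replicate 3 and Kcne4 in KO replicate 7.

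Genes that work with potassium channels under other names did not pass either. Of 11 tested partner genes, among them the scaffold genes Ank2 and Dlg1, 0 were called and 0 had an unadjusted p below 0.05 (log2 fold changes from -0.52 to 0.20). Of 12 transcription factors reported to act on ventricular potassium channel genes, 0 were called and 0 had an unadjusted p below 0.05 (-0.32 to 0.37). Klf15, known as an activator of Kcnip2, averaged 34.1 ± 6.17 CPM in KO and 30.5 ± 12.1 CPM in WT, and Irx5, known as a repressor of Kcnd2, 7.61 ± 1.73 CPM in KO and 9.53 ± 0.807 CPM in WT (SD, n = 4 each). Of 17 tested genes for potassium pumps, cotransporters and other potassium-conducting proteins, 0 were called and 2 had an unadjusted p below 0.05. Over all tested genes 6.40% had such a p. Of the 17, 1 had genotypes that did not overlap, beside 4.12% of all tested genes. Tmem175, a lysosomal potassium channel, had 14.8, 16.4, 15.1 and 13.9 CPM in KO, against 12.0, 8.39, 10.5 and 10.4 CPM in WT, so every KO library lay above every WT library (0.54 ± 0.14, unadjusted p = 0.00187, adjusted p = 0.652 in edgeR). Atp1b3, a beta subunit of the sodium pump, had 62.7, 64.9, 71.5 and 70.7 CPM in KO, against 67.8, 94.9, 105 and 76.6 CPM in WT (-0.35 ± 0.14, adjusted p = 0.734).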

How the data were processed

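Poly(A) RNA of 8 hearts went into a stranded library kit, per the labels' protocols. The submitters' processing notes name STAR 2.7.1a and the builds GRCm38 and mm10. The authors deposited raw whole-number counts per Ensembl gene. Which program counted the reads, on which strand and with which annotation is not given in the sources used here. Symbols, positions, exonic lengths and transcripts came from GENCODE M21 (GRCm38), which matched 36345 of the 38293 rows. In all 28 pairs of libraries the counts differed beyond sampling error (the chi-square statistic was at least 11.5 times its degrees of freedom). No pair was thus the same library read again. This does not show separate animals, and each library was taken as 1 sample from its label.

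The whole table was tested with edgeR 4.0.16 in R 4.3.3 (quasi-likelihood test, two-sided, TMM scaling, genotype alone in the model) after filterByExpr at a minimum count of 10. P-values were adjusted by Benjamini-Hochberg over 13336 genes, with a threshold of 0.05. SE came from the fold change and its F statistic, and 95% intervals from the t distribution of the fit. The biological coefficient of variation was 0.179. The test was also run on simulated counts, and no statement above rests on that run.

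The family, its lists and the rule for named genes were chosen with earlier results of these data known. The rule names detected genes of the ventricular current lists, the 6 tested Kcn genes with the smallest p, the 8 with the highest level per kb of exon, and Nbdy; other genes were named after their values were seen. A few Kcn genes are left out of the text and the plots, while counts and medians over the family include them. Alternatives were DESeq2 1.42.0 (test and size factors), library totals, 2 other filters, limma-voom (limma 3.58.1), a robust edgeR fit, removal of mitochondrial genes, offsets for GC content and length (natural splines with 4 degrees of freedom), a fit with 1 surrogate variable from sva 3.50.0, a threshold of 0.10 and each library left out in turn.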

Additional observations from a re-analysis of the deposited data

Results flagged for a closer look

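Among 82 groups of 4 libraries (the 40 tested Kcn genes and Nbdy in each genotype), 6 held a library far from the other 3, where chance gives about 1 in 20. Kcnj11 was 7.77 CPM in KO replicate 5, against 11.5 to 12.1 CPM in the other KO libraries, and 3.87 CPM in WT replicate 2, against 7.35 to 7.83 CPM in the other WT libraries. Kcne1, the auxiliary subunit of Kcnq1, was 14.8 CPM in WT replicate 3, against 9.22 to 9.86 CPM. KO replicate 7 was high in the 2-pore channel gene Kcnk6, at 12.9 CPM against 6.79 to 7.73 CPM in the other KO libraries, and in the auxiliary subunit Kcne4, at 6.98 CPM against 2.66 to 3.26 CPM. The sodium-activated channel gene Kcnt1 was 3.45 CPM in WT replicate 1, against 1.57 to 1.84 CPM.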

How the results depend on the processing

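No Kcn gene was called under any of the alternatives or at an adjusted p below 0.10. The median log2 fold change ran from 0.11 to 0.17. The number of Kcn genes with an unadjusted p below 0.05 (edgeR) was 5 of 40 with 1 surrogate variable. It was 2 to 6 with 1 library left out: 6 of 43 tested without WT replicate 1, and 6 of 42 without WT replicate 2. All tested genes below this p numbered 818 with 1 surrogate variable, 1452 without WT replicate 1 and 668 without WT replicate 2. In the main fit they were 853 of 13336 (6.40%). The background thus rose without WT replicate 1 and fell without WT replicate 2. Shares of all genes were not computed for these fits. Positive values numbered 47 of 76 without a filter and 28 to 33 with 1 library left out. Kcn genes whose genotypes did not overlap numbered 0 to 5 with 1 library left out, beside 6.07 to 11.2% of all tested genes. With library totals they numbered 0, beside 4.10% of all tested genes. All genes called were 10 without a filter, 11 with DESeq2, 5 with 1 surrogate variable and 2 to 6 with 1 library left out, and those with an unadjusted p below 0.05 were 659 to 1452 (the highest without WT replicate 1). Of 24 named tested Kcn genes, 15 kept their sign in every fit. The sign turned for Kcnj5 (-0.01) and Kcnj12 (-0.03) with library totals, for Kcnj12 (-0.06) without the GC content and length trend, for Kcnd3 (0.0029) in limma-voom and for Kcnj2 (-0.10) with 1 surrogate variable. With 1 library left out it turned for Kcnd2 (-0.13 to 0.26), Kcnd3 (-0.15 to 0.13), Kcna4 (-0.33 to 0.50), Kcne1 (-0.03 to 0.27), Kcnj2 (-0.20 to 0.32), Kcnj5 (-0.02 to 0.13), Kcnj8 (-0.06 to 0.06), Kcnj12 (-0.05 to 0.07) and Kcnn1 (-0.07 to 0.39). The cause was not tested. No paired analysis was possible because the genotypes share no replicate numbers. Depth limits the low genes: Kcne3, Kcna4, Kcnn4 and the 36 detected but untested genes rest on few counts.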

Other observations

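Several Kcn genes lie within 200 kb of each other, some with unlike and some with like levels. Kcna5, Kcna1 and Kcna6 stand in a row on chromosome 6, with gaps of 105 kb and 61.9 kb, at 21.4, 1.11 and 0.213 CPM per kb (means over the 8 libraries), and their log2 fold changes were 0.21, 0.28 and 0.55, none of which passed. On chromosome 16 Kcne2, with no counts, lies 47.9 kb from the detected Kcne1. On chromosome 11 Kcnj16, with at most 4 counts in a library, lies 38.2 kb from Kcnj2. On chromosome 3 Kcna3, Kcna2 and Kcna10 stand in a row at 0.00516, 0.00762 and 0 CPM per kb, and on chromosome 1 Kcnj9 and Kcnj10 lie 11.9 kb apart at 0.0141 and 0.0408 CPM per kb. Kcnmb1 lies within the span of Kcnip1, which had at most 8 counts in a library. Of the detected but untested genes, Kcnj14, an inward rectifier, had the highest count in a single library, 18 in WT replicate 4. Hcn2, a pacemaker channel gene of the same superfamily, averaged 31.5 ± 6.23 CPM in KO and 26.8 ± 7.82 CPM in WT (SD, n = 4 each), and its log2 fold change of 0.23 ± 0.19 did not pass.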
